A study of Homo sapiens with 12 samples.

Results

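A set of 10 genes of the contractile apparatus and of actin binding was followed through a CXCR7 knockdown (KD) in prostate cancer cells: the smooth muscle actins ACTA2 and ACTG2, the myosin light chains MYL9 and MYL7, and the actin binders TAGLN, CNN1, TPM1, TPM2, CALD1 and VIL1. They are 10 of the 26439 genes kept from the deposited table. The genes were chosen with their levels in these libraries, and their differences after KD, already known, so those levels and differences are given as a description with no test. Tests are given for the response of 86 companion genes of the same pathways to KD. They are also given for control cells of one line against the other, for those of the 10 genes whose levels allow it. The companion lists, too, were drawn up with earlier results of these data known, so their counts are not independent evidence.

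LNCaP-EnzR and C4-2B-EnzR cells are LNCaP and C4-2B human prostate cancer lines that were made resistant to enzalutamide, an inhibitor of the androgen receptor, by long exposure (the sample labels call them MDVr). C4-2B descends from LNCaP. C4-2B-EnzR cells were kept in 10 µM and LNCaP-EnzR cells in 2 µM enzalutamide in RPMI medium with fetal bovine serum, and each line was infected with a lentivirus carrying an shRNA against CXCR7 (shCXCR7) or with the control vector (LKO). RNA was taken 4 days after infection, and each of the 4 groups, C4-2B-EnzR shCXCR7, C4-2B-EnzR LKO, LNCaP-EnzR shCXCR7 and LNCaP-EnzR LKO, has 3 libraries. The sources do not say whether the 3 were separate infections or which of the study's hairpins was used, so the errors cover the spread between these libraries, which may be technical. Since these are bulk samples, fewer cells that carry a transcript and less of it per cell cannot be told apart.

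Levels are RPKM, reads scaled for gene length (per kilobase) and for library size, here further rescaled so that the typical gene has the same level in the 6 libraries of a line; 1 read of each gene can be recovered from the steps of its values, and read counts are given where they are few. The libraries hold 6379094 to 9830118 reads in genes. The targeted gene, listed as ACKR3, was at 22.3, 23.7 and 19.0 RPKM in C4-2B-EnzR shCXCR7 against 84.2, 86.7 and 85.8 RPKM in LKO (log2 fold change -1.97, SE 0.09), and at 55.8, 50.5 and 42.2 RPKM in LNCaP-EnzR shCXCR7 against 122, 117 and 111 RPKM in LKO (-1.24, SE 0.11). One library stands apart by its background. LNCaP-EnzR shCXCR7 replicate 3 lists 1636 genes at 0 where the other 11 list 8719 to 9652, has 27.5% of its reads in genes where the others have 66.9% to 75.5%, and shows a median of 0.475 rescaled RPKM, with a 90th percentile of 1.34 RPKM, for genes at 0 in all the others. LNCaP-EnzR values of genes near that level rest in part on this library, and the main ones are also given without it. C4-2B-EnzR LKO replicate 1 also differed from its group. The chi-square of its read counts per degree of freedom was 6.49 against replicate 2 and 13.01 against replicate 3. Between replicates 2 and 3 it was 3.5.

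Actin and myosin slide along each other to make force. In smooth muscle the actin is largely ACTA2 in vessels and ACTG2 in gut and other viscera, contraction starts when the regulatory light chain MYL9 is phosphorylated by myosin light chain kinase, and calponin, caldesmon, transgelin and tropomyosin sit on the thin filament. Many of these genes are switched on by serum response factor (SRF), which binds a sequence called the CArG box and works with myocardin in muscle and with the related factors MKL1 and MKL2 (MRTFA and MRTFB) in other cells. Luminal prostate cells are epithelial and are not contractile.

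The smooth muscle actins had the highest log2 differences of the set, on the scale of log2(RPKM + 0.25). By the ratio of mean RPKM, VIL1 stood above ACTA2 in both lines and MYL9 above it in LNCaP-EnzR. ACTA2 (chromosome 10:88935074-88991339, minus strand, GRCh38) had 50, 36.5 and 65.9 RPKM in C4-2B-EnzR shCXCR7 against 1.03, 0.391 and 0.685 RPKM in LKO, a 72.5-fold difference of the means. Its levels in LNCaP-EnzR were 11.8, 17.3 and 13.9 RPKM in shCXCR7 against 0.665, 1.04 and 0.836 RPKM in LKO, a 17.0-fold difference. In both lines every KD library lay above every control library, and both sets of controls were near 1 RPKM. On that log2 scale, used for all log2 values here and which understates the change of low genes, the difference was 5.76 (SE 0.28) in C4-2B-EnzR and 3.73 (SE 0.16) in LNCaP-EnzR, the second highest of 13352 genes and the third highest of 13167. Its exons overlap FAS and ACTA2-AS1 on the other strand, and an unnamed gene model on the same strand by 401 bases. The sources do not say whether reads were counted by strand. FAS, the death receptor gene, averaged 9.55 ± 1.77 RPKM in C4-2B-EnzR shCXCR7 and 5.58 ± 0.266 RPKM in LKO, and 5.38 ± 0.261 RPKM in LNCaP-EnzR shCXCR7 and 3.81 ± 1.08 RPKM in LKO (SD, n = 3 each).

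ACTG2 (2:73892314-73919865, plus strand) had next to no reads in controls. After KD in C4-2B-EnzR its range overlapped that of ACTA2, though ACTG2 was the lower of the pair in each library. It had 30.5, 19.2 and 38.4 RPKM in C4-2B-EnzR shCXCR7, from 500, 292 and 609 reads, against 0, 0.0776 and 0 RPKM in LKO, from 1 read in all. LNCaP-EnzR showed less of it, with 2.62, 2.97 and 3.76 RPKM in shCXCR7, from 49, 64 and 88 reads, against 0.0711, 0 and 0 RPKM in LKO, again 1 read in all. With 1 control read the ratio per depth is loose: 1352 (95% exact interval 242 to 53428, counting error only) in C4-2B-EnzR and 164 (29.1 to 6499; 145 without replicate 3) in LNCaP-EnzR. The log2 differences were 6.70 (SE 0.25), the highest of all genes tested in C4-2B-EnzR, and 3.62 (SE 0.30), the fourth highest in LNCaP-EnzR.

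ACTG2 carries a pair of CArG boxes just before its start. The 250 bases before the start of the RefSeq transcript (GRCh38.p14, chr2:73892758-73893007, plus strand) are shown with the boxes in capitals, because the gene had the highest difference and the boxes are where SRF would be looked for.
ACTG2: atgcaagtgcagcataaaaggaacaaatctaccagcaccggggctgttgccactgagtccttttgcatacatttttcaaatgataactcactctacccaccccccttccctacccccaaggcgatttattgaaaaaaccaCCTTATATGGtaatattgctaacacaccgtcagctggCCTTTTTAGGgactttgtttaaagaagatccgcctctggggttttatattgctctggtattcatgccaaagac
The boxes begin 110 and 73 bases before the start. The same stretch of MYL7 (chr7:44141333-44141582, minus strand) and of SRF itself (chr6:43171019-43171268, plus strand) is shown for comparison, again with CArG boxes in capitals; the MYL7 box begins 61 bases before the start and the SRF boxes 30 and 10 bases before it.
MYL7: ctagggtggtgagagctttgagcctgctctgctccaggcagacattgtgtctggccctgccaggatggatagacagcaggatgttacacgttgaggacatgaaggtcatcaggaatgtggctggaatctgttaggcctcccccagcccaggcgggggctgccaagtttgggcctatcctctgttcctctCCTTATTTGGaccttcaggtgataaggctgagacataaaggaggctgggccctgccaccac
SRF: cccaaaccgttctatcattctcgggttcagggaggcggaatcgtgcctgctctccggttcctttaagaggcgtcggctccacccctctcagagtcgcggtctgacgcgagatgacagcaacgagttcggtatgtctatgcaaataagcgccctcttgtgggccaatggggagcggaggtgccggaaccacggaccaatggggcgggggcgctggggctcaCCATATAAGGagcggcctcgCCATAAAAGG
Of the 10 genes 7 matched a RefSeq window of 250 bases before to 50 after a start, namely ACTA2, ACTG2, MYL7, CNN1, TPM1, TPM2 and CALD1, and 2 of them held a CArG box, against 1.6% of all genes with a window (1.29% of the 35116 windows). Among the companion genes 17 of 73 did (23.3%), but these lists were drawn in part from known SRF targets. The box reads the same on both strands and was searched without mismatches; a match is a description, and its absence says nothing about SRF.

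**Figure D1:**
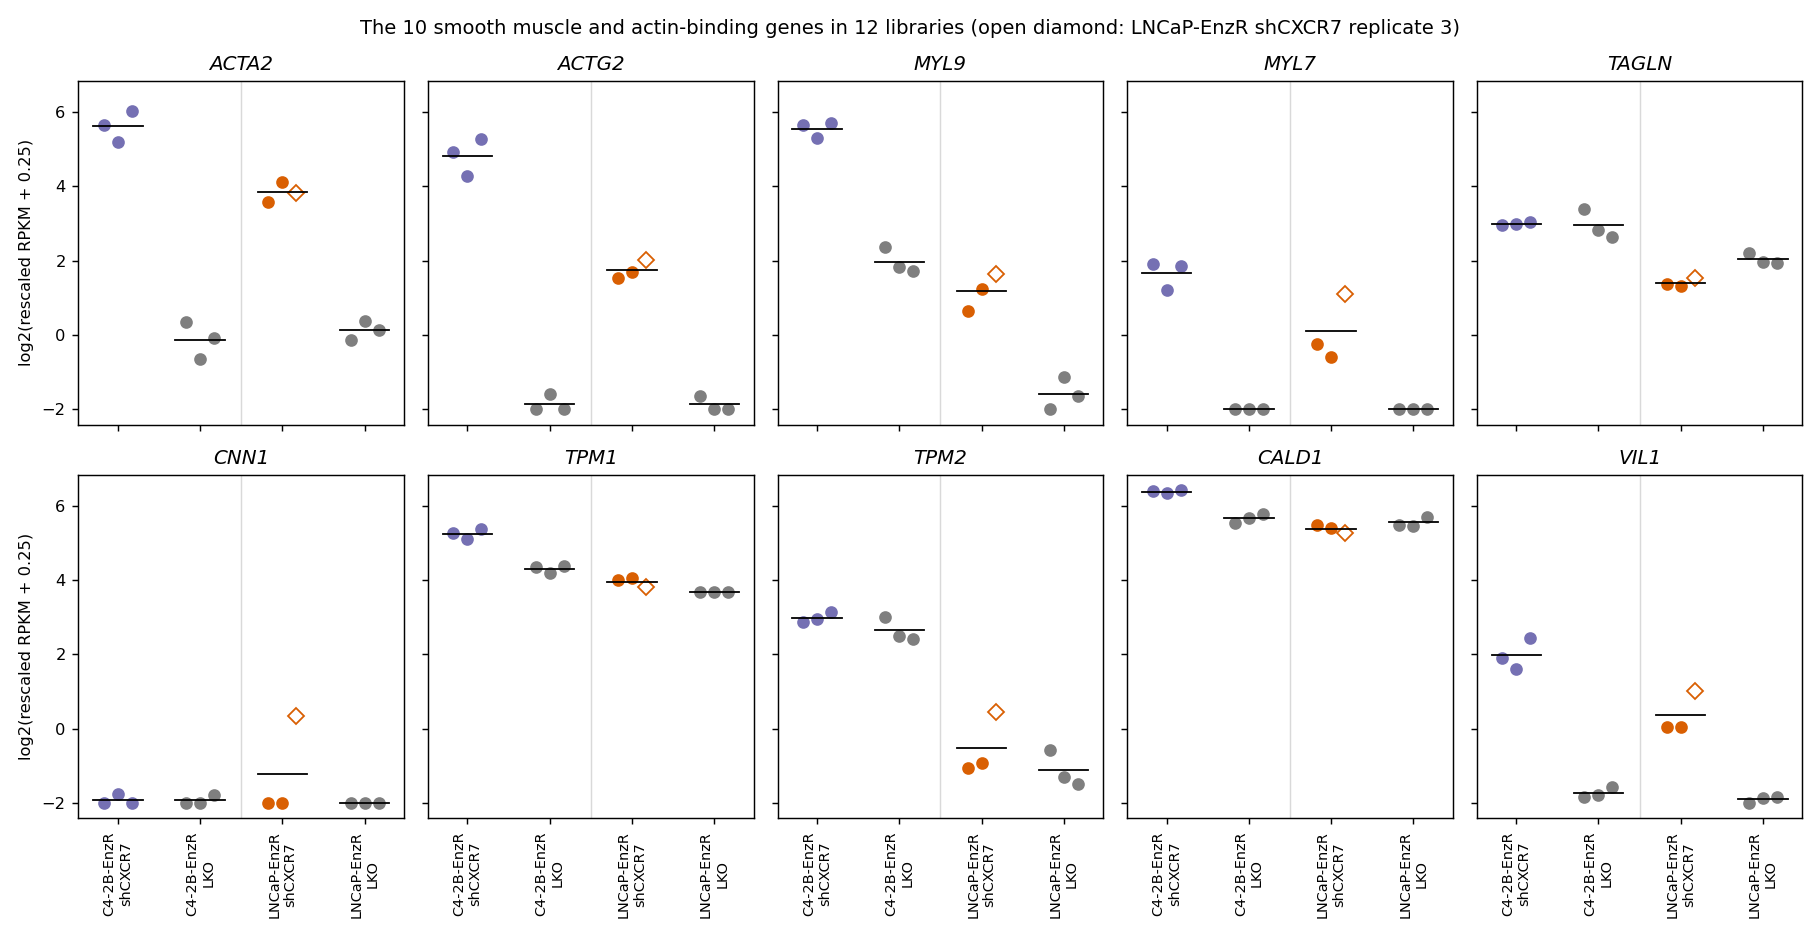
Level of each of the 10 genes, as log2(rescaled RPKM + 0.25), in the 3 libraries of each group; points are libraries, bars their means, and the open diamond is LNCaP-EnzR shCXCR7 replicate 3. ACTA2, ACTG2, MYL9, MYL7 and VIL1 sit higher in all shCXCR7 libraries than in any LKO library of the same line, while for CNN1 the open diamond is the only point above 0.1 RPKM.

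The light chains followed the actins. MYL9 (20:36541497-36551447, plus strand), the regulatory light chain of smooth muscle and nonmuscle myosin, had 49.9, 39.1 and 51.9 RPKM in C4-2B-EnzR shCXCR7 against 4.90, 3.28 and 3.05 RPKM in LKO. The LNCaP-EnzR levels were lower, at 1.31, 2.11 and 2.85 RPKM in shCXCR7 against 0, 0.207 and 0.0680 RPKM in LKO, 123 reads against 5. The groups did not overlap in either line. The log2 difference was 3.58 (SE 0.18) in C4-2B-EnzR and 2.77 (SE 0.40) in LNCaP-EnzR, or 2.67 without replicate 3.

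MYL7 (7:44138864-44141332, minus strand), the regulatory light chain of the heart atria, was at 0 in all 6 control libraries. It had 3.54, 2.06 and 3.37 RPKM in C4-2B-EnzR shCXCR7, from 26, 14 and 24 reads. In LNCaP-EnzR shCXCR7 it had 0.595, 0.413 and 1.91 RPKM, from 5, 4 and 20 reads, and the highest of these is the library with the raised background. With the control group set at a floor of 3 reads it was 20.6-fold higher in C4-2B-EnzR and 7.87-fold higher in LNCaP-EnzR, or 3.86-fold without replicate 3. These folds leave out the counting error of the KD reads, so they are not strict lower bounds.

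VIL1 (2:218419121-218453295, plus strand) encodes villin, which bundles actin in the microvilli of gut and kidney epithelium and is no smooth muscle protein. It had 3.50, 2.82 and 5.15 RPKM in C4-2B-EnzR shCXCR7 against 0.0302, 0.0377 and 0.0869 RPKM in LKO, 374 reads against 5 (ratio 72.2, interval 30.7 to 224). In LNCaP-EnzR it had 0.779, 0.789 and 1.77 RPKM in shCXCR7 against 0, 0.0226 and 0.0297 RPKM in LKO, 150 reads against 2 (ratio 61.1, interval 16.6 to 509; 41.8 without replicate 3). VIL1 thus stood at a few RPKM at most. Its exons overlap 3045 bases of USP37 on the other strand; USP37 averaged 2.92 ± 0.116 RPKM in C4-2B-EnzR shCXCR7 and 3.69 ± 0.439 RPKM in LKO (SD, n = 3 each).

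The thin filament binders split from the actins. TPM1 (15:63042620-63071915, plus strand), a tropomyosin made in muscle and nonmuscle forms, had 38.2, 34.6 and 41.6 RPKM in C4-2B-EnzR shCXCR7 against 20.1, 18.0 and 20.8 RPKM in LKO. In LNCaP-EnzR it had 15.9, 16.6 and 13.8 RPKM in shCXCR7 against 12.6, 12.7 and 12.5 RPKM in LKO. Both pairs of groups were apart, with means 1.94-fold and 1.23-fold those of the controls (log2 difference 0.95, SE 0.09, and 0.29, SE 0.08). In LNCaP-EnzR the direction rests on the rescaling: with RPKM as deposited the difference was -0.05, while the median of all genes was at -0.31. TPM1 exons overlap 2645 bases of TPM1-AS on the opposite strand.

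CALD1 (7:134744252-134970729, plus strand) encodes caldesmon, which is made in a smooth muscle and a nonmuscle form, and was the most abundant of the 10 in every group. It had 84.2, 81.9 and 85.5 RPKM in C4-2B-EnzR shCXCR7 against 46.8, 51.3 and 54.6 RPKM in LKO, and 44.8, 42.2 and 38.8 RPKM in LNCaP-EnzR shCXCR7 against 44.8, 44.1 and 52.3 RPKM in LKO. The groups were apart in C4-2B-EnzR (log2 difference 0.72, SE 0.07) and overlapped in LNCaP-EnzR (-0.16, SE 0.09). Gene-level RPKM do not separate the caldesmon or tropomyosin forms.

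TAGLN, TPM2 and CNN1, which mark contractile smooth muscle as ACTA2 does, did not share its pattern. TAGLN (11:117199370-117207464, plus strand), which encodes transgelin or SM22, had 7.51, 7.71 and 7.97 RPKM in C4-2B-EnzR shCXCR7 against 10.2, 6.84 and 5.96 RPKM in LKO (log2 difference 0.05, SE 0.18). In LNCaP-EnzR it had 2.33, 2.22 and 2.63 RPKM in shCXCR7 against 4.38, 3.62 and 3.56 RPKM in LKO, so that all KD libraries were lower (-0.63, SE 0.12). Its exons overlap 2233 bases of PCSK7 on the opposite strand and share 36.3% of their 50-base words with an unnamed gene model on the same strand, so its level is uncertain; PCSK7 itself was lower after KD (-0.65, SE 0.10, adjusted p = 0.00138 in C4-2B-EnzR, and -0.47, SE 0.10, adjusted p = 0.00339 in LNCaP-EnzR, limma). The part of PCSK7 reads in the TAGLN values was not tested.

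TPM2 (9:35681992-35690056, minus strand), the tropomyosin of slow and smooth muscle, had 7.07, 7.46 and 8.52 RPKM in C4-2B-EnzR shCXCR7 against 7.82, 5.45 and 5.09 RPKM in LKO, and the groups overlapped (0.34, SE 0.16). In LNCaP-EnzR it had 0.226, 0.274 and 1.12 RPKM in shCXCR7 against 0.421, 0.157 and 0.103 RPKM in LKO, and the one high value is in the library with the raised background. CNN1 (19:11538767-11550323, plus strand), which encodes calponin 1, a marker of mature smooth muscle, was all but absent. It had 0, 1 and 0 reads in C4-2B-EnzR shCXCR7 against 0, 0 and 1 read in LKO, and 0, 0 and 34 reads in LNCaP-EnzR shCXCR7 against none in LKO, so that without replicate 3 no LNCaP-EnzR library had a read. At these depths both groups of C4-2B-EnzR are under the 3-read floor and no fold is given.

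**Figure D2:**
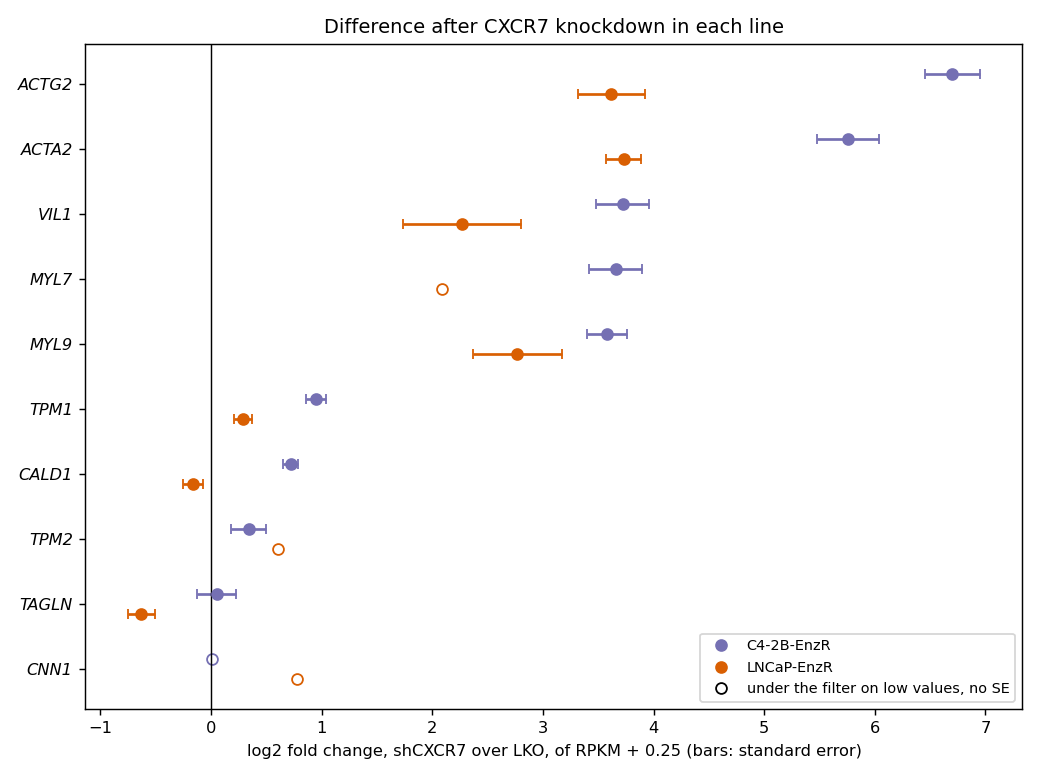
Difference after CXCR7 KD, as log2 fold change of RPKM + 0.25 (shCXCR7 over LKO), for each gene in C4-2B-EnzR (violet) and LNCaP-EnzR (orange); bars are standard errors, and open circles mark genes under the filter on low values, which have none. The differences run from 6.70 for ACTG2 to 0.01 for CNN1 in C4-2B-EnzR, and from 3.73 for ACTA2 to -0.63 for TAGLN in LNCaP-EnzR.

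Across the 10 genes the KD libraries were all above the controls for 7 genes in C4-2B-EnzR and for 6 in LNCaP-EnzR, and all below for TAGLN in LNCaP-EnzR. Over all genes tested, 27.6% were apart in the higher direction in C4-2B-EnzR, and 26.2% in the higher and 25.9% in the lower direction in LNCaP-EnzR; nothing is read from this, since the genes were chosen on these values. The filter on low values, at least 0.5 RPKM in 3 libraries of the line, was passed by 9 genes in C4-2B-EnzR (not CNN1) and by 7 in LNCaP-EnzR (not MYL7, CNN1 and TPM2). Where ACTG2, VIL1 and MYL7 passed, and for MYL9 in LNCaP-EnzR, it was through the KD libraries alone. The median log2 difference of all 10 was 2.26 in C4-2B-EnzR and 1.44 in LNCaP-EnzR, beside medians of -0.00 and 0.02 for all genes. Without replicate 3 the LNCaP-EnzR median was 1.04. With MYL7 and CNN1 set at their fold over the 3-read floor where controls were at 0, the median was 2.26 and 2.52. The CNN1 fold in LNCaP-EnzR comes from the 34 reads of replicate 3 alone, the library with the raised background, so the 2.52 rests in part on it.

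The log2 difference was larger in C4-2B-EnzR than in LNCaP-EnzR for most of the genes, on a scale whose pseudocount weighs on genes near 0. C4-2B-EnzR minus LNCaP-EnzR, it was 3.09 (SE 0.34) for ACTG2, 2.03 (SE 0.36) for ACTA2, 1.57 (SE 0.56) for MYL7, 1.45 (SE 0.44) for VIL1, 0.88 (SE 0.12) for CALD1, 0.82 (SE 0.38) for MYL9, 0.68 (SE 0.22) for TAGLN and 0.66 (SE 0.12) for TPM1 on the log2 scale. For TPM2 it was -0.27 (SE 0.50). The ratio of reads per depth turned the order for MYL9, at 12.5 (interval 10.6 to 14.8) in C4-2B-EnzR and 20 (8.36 to 62.8) in LNCaP-EnzR, and for VIL1 the intervals overlapped, as they did for ACTG2. The log2 change of ACKR3 itself was -1.97 in C4-2B-EnzR and -1.24 in LNCaP-EnzR, and the lines also differ in enzalutamide dose and in the P number of their sample titles; these cannot be told apart.

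The order of the levels changed as well. In C4-2B-EnzR shCXCR7 it was CALD1, ACTA2, MYL9, TPM1, ACTG2, TAGLN, TPM2, VIL1, MYL7 and CNN1. The ranges of neighbours across libraries overlapped from ACTA2 through ACTG2, for TAGLN with TPM2 and for VIL1 with MYL7. Within each of these libraries, however, MYL9 stood above TPM1 and TPM1 above ACTG2. In C4-2B-EnzR LKO it was CALD1, TPM1, TAGLN, TPM2, MYL9, ACTA2, VIL1, ACTG2, CNN1 and MYL7, with everything after ACTA2 under 0.1 RPKM. The ranges of TAGLN and TPM2 overlapped there, though TAGLN was above TPM2 in each library. In LNCaP-EnzR shCXCR7 CALD1 led, TPM1 and ACTA2 overlapped with means of 15.4 and 14.3 RPKM, and the range of each gene from ACTG2 down overlapped the next. Within each of these libraries ACTG2 stood above TAGLN, MYL9 above VIL1, MYL7 above TPM2 and TPM2 above CNN1. In LNCaP-EnzR LKO the order was CALD1, TPM1, TAGLN and ACTA2, each apart from the next, followed by 6 genes that averaged at most 0.227 RPKM.

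Set against their families, the smooth muscle isoforms remained a small share. RPKM is per kilobase, so levels were added across genes. The sources do not give the gene lengths used, and the shares depend on them. ACTA2 and ACTG2 together made up 4.21%, 2.88% and 5.44% of the RPKM of the 6 actin genes in C4-2B-EnzR shCXCR7 against 0.0705%, 0.0307% and 0.0402% in LKO, and 0.909%, 1.20% and 1.26% in LNCaP-EnzR shCXCR7 against 0.0465%, 0.0596% and 0.0472% in LKO. The rest was nearly all ACTB and ACTG1, the actins of every cell. Of the 3 closely related regulatory light chains MYL9, MYL12A and MYL12B, MYL9 made up 14.7% ± 2.08 in C4-2B-EnzR shCXCR7 and 2.70% ± 1.05 in LKO (SD, n = 3 each).

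Among the tropomyosins the share of TPM4, a nonmuscle form found on stress fibers, was higher after KD in both lines. Those of TPM1 and TPM3 were lower in both, and that of TPM2 was lower in C4-2B-EnzR. In LNCaP-EnzR TPM2 made up at most 1.93% in any library. The summed level of the 4 genes was 148, 137 and 165 RPKM in C4-2B-EnzR shCXCR7 against 57.8, 55.3 and 61.8 RPKM in LKO, and 68.5, 67.1 and 58.1 RPKM in LNCaP-EnzR shCXCR7 against 32.9, 33.1 and 34.4 RPKM in LKO. TPM4 made up 52.0% ± 1.38 of it in C4-2B-EnzR shCXCR7 and 28.6% ± 1.76 in LKO, and 57.9% ± 1.70 in LNCaP-EnzR shCXCR7 and 36.4% ± 1.06 in LKO (SD, n = 3 each). TPM1 made up 25.4% ± 0.345 in C4-2B-EnzR shCXCR7 and 33.7% ± 1.13 in LKO, though its own level was higher after KD. In the same groups TPM3 made up 17.4% ± 1.27 and 27.2% ± 1.82, and TPM2 5.12% ± 0.328 and 10.5% ± 2.72. In reads TPM3 stood above TPM4 in each group, as in C4-2B-EnzR shCXCR7 replicate 1 with 3890 against 2791. The shares thus depend on the gene lengths used.

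**Figure D3:**
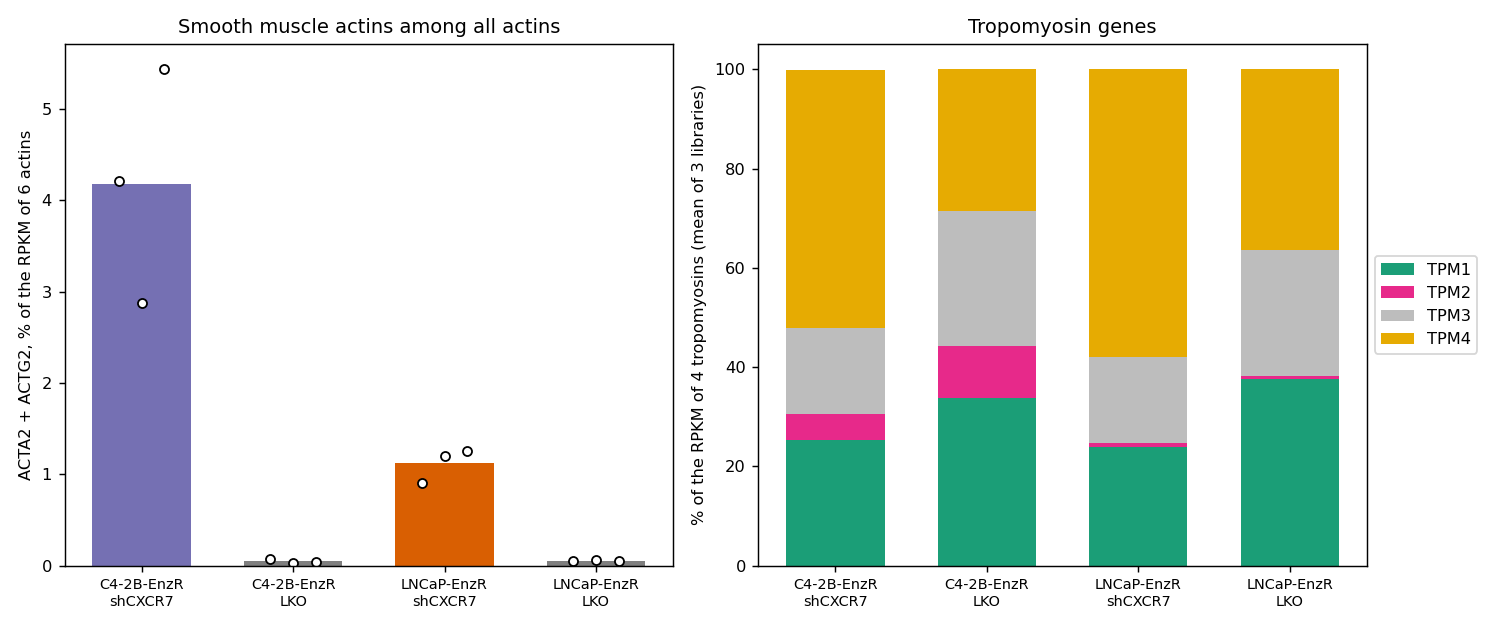
Left, ACTA2 and ACTG2 as a percentage of the summed RPKM of 6 actin genes (bars are means of 3 libraries, circles the libraries); right, the mean share of each of 4 tropomyosin genes in their summed RPKM. The actin bars reach 4.18% and 1.12% in the shCXCR7 groups of C4-2B-EnzR and LNCaP-EnzR and stay near 0.05% in LKO, and the TPM4 segment is taller in shCXCR7 than in LKO of either line.

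Control cells of the lines already differed in part of the set. C4-2B-EnzR LKO was compared with LNCaP-EnzR LKO, rescaled over these 6 libraries; this contrast did not choose the genes but shares its control libraries with those that did. The fit was limma with Benjamini-Hochberg adjustment over 13376 genes. TPM2 had 7.50, 5.19 and 4.82 RPKM in C4-2B-EnzR against 0.493, 0.183 and 0.121 RPKM in LNCaP-EnzR (log2 difference 3.60, SE 0.28). MYL9 had 4.70, 3.13 and 2.89 RPKM in C4-2B-EnzR against 0, 0.241 and 0.0797 RPKM in LNCaP-EnzR (3.45, SE 0.28). Both passed the filter on low values through the C4-2B-EnzR libraries alone, so their differences are given with no test. C4-2B-EnzR replicate 1 was the highest control for both, as it was for TAGLN, and the lines did not overlap.

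Smaller differences were seen for TPM1, at 18.7 ± 1.39 RPKM in C4-2B-EnzR and 14.7 ± 0.0752 RPKM in LNCaP-EnzR (SD, n = 3 each; log2 difference 0.34, SE 0.07, adjusted p = 0.00398, limma), and for TAGLN, at 7.33 ± 2.20 RPKM in C4-2B-EnzR and 4.50 ± 0.544 RPKM in LNCaP-EnzR (0.64, SE 0.19, adjusted p = 0.0196, limma). The TAGLN call was lost, with adjusted p of 0.0601 or 0.0628 in limma, when LNCaP-EnzR LKO replicate 2 or 3 was left out. ACTA2 (-0.47, SE 0.27, adjusted p = 0.159) and CALD1 (-0.18, SE 0.09, adjusted p = 0.110) did not pass in limma, although ACTA2 passed as lower (-0.71, adjusted p = 0.036) without C4-2B-EnzR LKO replicate 1, its highest library in that group. Of the genes that did not pass the filter through one line alone, TPM1 and TAGLN were called higher in C4-2B-EnzR, and ACTA2 and CALD1 were not called. Over all genes 32.9% were called higher. TPM2 and MYL9, which passed the filter through the C4-2B-EnzR libraries alone, are left out here. ACTG2, MYL7, CNN1 and VIL1 were under the filter, with at most 0.0833 RPKM in any control. Enzalutamide dose differs with the line and cannot be told apart from it.

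**Figure D4:**
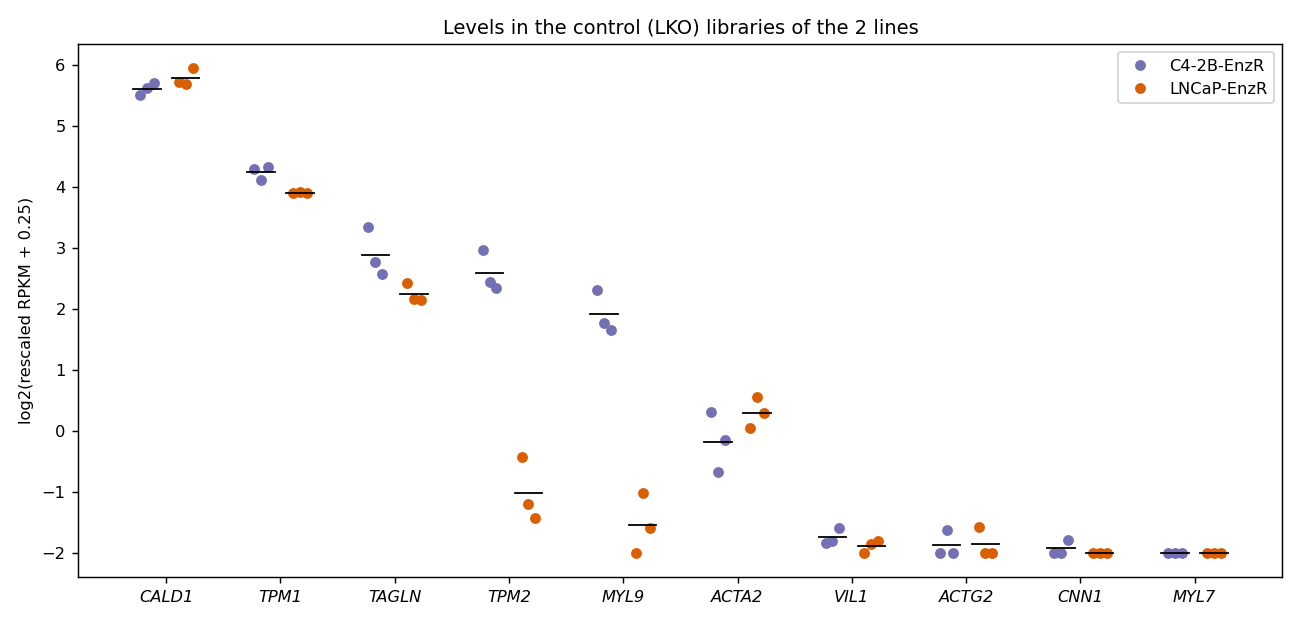
Level of the 10 genes, as log2(rescaled RPKM + 0.25), in the 3 control libraries of C4-2B-EnzR (violet, left of each pair) and of LNCaP-EnzR (orange), with means as bars. TPM2 and MYL9 are separated by 3.60 and 3.45 log2 units, and ACTG2, CNN1, MYL7 and VIL1 lie at or near the floor in both lines.

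Of the 86 companion genes in 8 lists, 58 could be tested in C4-2B-EnzR, where 27 rose and 7 fell at an adjusted p under 0.05, and 57 in LNCaP-EnzR, where 25 rose and 9 fell (limma with Benjamini-Hochberg adjustment over all genes). Counted among the risen are ACTA1 in both lines and FHL2 in C4-2B-EnzR, which passed the filter on low values through the KD libraries alone. Over all genes, 21.2% rose and 21.3% fell in C4-2B-EnzR, and 19.2% rose and 21.2% fell in LNCaP-EnzR. The same shares stand beside the counts of the single lists below. The median log2 change of the companions tested was 0.29 and 0.27, beside medians of all genes of -0.00 and 0.02. Of the companions, 19 rose in both lines and 4 fell in both, and none moved in opposite directions past the threshold.

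Among the regulators SRF itself rose. It had 24.3, 23.1 and 26.9 RPKM in C4-2B-EnzR shCXCR7 against 12.7, 11.6 and 11.9 RPKM in LKO, and 16.5, 19.2 and 16.0 RPKM in LNCaP-EnzR shCXCR7 against 8.52, 8.35 and 7.73 RPKM in LKO, with no overlap in either line. The log2 change was 1.02 (SE 0.08, adjusted p = 8.3e-05, limma) in C4-2B-EnzR and 1.04 (SE 0.09, adjusted p = 1.5e-05, limma) in LNCaP-EnzR. MKL1 fell in C4-2B-EnzR (-0.30, SE 0.08, adjusted p = 0.0135, limma; 0.0559 without C4-2B-EnzR shCXCR7 replicate 1), and MKL2 rose in LNCaP-EnzR (0.56, SE 0.08, adjusted p = 2.9e-04). ELK4, an Ets partner of SRF, fell in C4-2B-EnzR (-0.43, adjusted p = 0.006, limma) and in LNCaP-EnzR (-0.27, adjusted p = 0.0218), where the call was lost without LKO replicate 1 or 3 or shCXCR7 replicate 2 (adjusted p = 0.0649 to 0.0862). Of the 6 regulators tested, 1 rose and 2 fell in C4-2B-EnzR, and 2 rose and 1 fell in LNCaP-EnzR. MYOCD, the muscle cofactor myocardin, had no read outside LNCaP-EnzR shCXCR7 replicate 3.

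Of 17 SRF and MRTF target genes, 9 of 11 tested rose and none fell in C4-2B-EnzR, and 7 of 10 rose and 1, PDLIM7, fell in LNCaP-EnzR. Over all genes 21.2% rose in C4-2B-EnzR and 19.2% in LNCaP-EnzR. FHL2 is one of the 9, and its call carries no weight, since the filter fixed its direction. Zyxin (ZYX), a focal adhesion protein, had 89.3, 83.5 and 96.8 RPKM in C4-2B-EnzR shCXCR7 against 25.1, 23.2 and 24.6 RPKM in LKO, and 30.0, 36.5 and 29.9 RPKM in LNCaP-EnzR shCXCR7 against 7.06, 7.27 and 6.36 RPKM in LKO (log2 change 1.87 and 2.18, SE 0.08 and 0.09, adjusted p = 8.7e-06 and 5.0e-07, limma). Filamin A (FLNA), which crosslinks actin, rose by 1.61 (SE 0.12) and 1.33 (SE 0.10) on the log2 scale. The LIM protein gene FHL2, which passed the filter through the KD libraries alone, was higher in C4-2B-EnzR (2.71, SE 0.19), at 2.44 ± 0.171 RPKM in shCXCR7 and 0.165 ± 0.0721 RPKM in LKO (SD, n = 3 each), and was under the filter in LNCaP-EnzR. The secreted matricellular protein gene CYR61 rose in LNCaP-EnzR (1.01, SE 0.15) and in C4-2B-EnzR (0.58, SE 0.09), whereas CTGF and ANKRD1, known targets too, were under the filter in both lines.

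Of 11 other genes of smooth muscle contraction, 4 could be tested in each line, and in C4-2B-EnzR none passed in limma. In LNCaP-EnzR 3 rose: MYLK, the light chain kinase (1.20, SE 0.20, adjusted p = 0.00122; 1.07 without shCXCR7 replicate 3), the intermediate filament gene SYNM (0.76, SE 0.22, adjusted p = 0.0194; 0.0525 or 0.0585 without LKO replicate 2 or 3; log2 change 0.55 without shCXCR7 replicate 3) and SMTN, smoothelin (0.46, SE 0.08, adjusted p = 0.00165). MYLK had 2.00, 1.71 and 2.62 RPKM in LNCaP-EnzR shCXCR7 against 0.671, 0.771 and 0.866 RPKM in LKO, while it stood at 25.6, 27.6 and 30.1 RPKM in C4-2B-EnzR shCXCR7 and 22.1, 24.6 and 28.7 RPKM in LKO. MYH11, the smooth muscle myosin heavy chain, DES, desmin, and LMOD1 were under the filter in both lines, with at most 0.562 RPKM in any library but LNCaP-EnzR shCXCR7 replicate 3, and KCNMB1 had no read outside LNCaP-EnzR shCXCR7 replicate 3.

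Among other actins ACTA1, the skeletal muscle actin, was higher after KD in both lines and stayed at a few RPKM. It passed the filter on low values through the KD libraries alone, so its differences are given with no test. It had 3.54, 2.29 and 5.17 RPKM in C4-2B-EnzR shCXCR7 against 0.222, 0.208 and 0.106 RPKM in LKO (log2 difference 3.14, SE 0.28), and 0.905, 0.703 and 2.14 RPKM in LNCaP-EnzR shCXCR7, the last from the library with the raised background, against 0.190, 0.207 and 0.109 RPKM in LKO (1.73, SE 0.45; 1.41 without that library). ACTB fell in both lines (-0.43 and -0.60, adjusted p = 0.00527 and 0.0044, limma), and ACTG1 rose in C4-2B-EnzR (0.74, SE 0.08, adjusted p = 2.5e-04). The heart actin ACTC1 had at most 0.0237 RPKM in the 11 libraries other than LNCaP-EnzR shCXCR7 replicate 3.

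Several nonmuscle relatives of the 10 genes rose. Of the other light chains 3 of 5 tested rose in C4-2B-EnzR, and 2 of 6 rose and 1 fell in LNCaP-EnzR; of the other tropomyosins, calponins and transgelins 3 of 4 and 2 of 4 rose. The regulatory light chain genes MYL12A (1.40, SE 0.08, and 0.98, SE 0.08) and MYL12B (0.75, SE 0.11, and 0.44, SE 0.10), TPM4 (2.21, SE 0.10, and 1.60, SE 0.09), TPM3 (0.71, SE 0.09, and 0.38, SE 0.08) and the myosin heavy chain gene MYH9 (0.89, SE 0.11, and 0.80, SE 0.09) all passed in C4-2B-EnzR and in LNCaP-EnzR, given in that order. The essential light chain gene MYL6 rose in C4-2B-EnzR (0.70, SE 0.10), MYL6B fell in LNCaP-EnzR (-0.51, SE 0.07), and CNN2, a calponin of nonmuscle cells, rose in C4-2B-EnzR (0.31, SE 0.08, adjusted p = 0.0174, limma; lost without C4-2B-EnzR LKO replicate 2 or shCXCR7 replicate 1 or 3, adjusted p = 0.0515 to 0.0711). Of the 13 nonmuscle myosin genes and regulators, 4 rose and 3 fell in C4-2B-EnzR, and 2 rose and 4 fell in LNCaP-EnzR. Among them DAPK3, a light chain kinase, rose (1.17, SE 0.09, and 0.57, SE 0.08) and PPP1R12A, the targeting subunit of the light chain phosphatase, fell (-0.57, SE 0.09, and -0.48, SE 0.09) in C4-2B-EnzR and in LNCaP-EnzR. The light chains of striated muscle, MYL1, MYL2, MYL3, MYL4, MYL10 and MYLPF, had at most 1.22 RPKM (MYLPF) in any library but LNCaP-EnzR shCXCR7 replicate 3.

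VIL1 was set beside 17 genes of the villin family, actin bundlers and microvillus proteins. Of these, 5 of 12 tested rose and 1 fell in C4-2B-EnzR, and 6 of 11 rose and 1 fell in LNCaP-EnzR. The bundlers fascin (FSCN1) and plastin (LCP1) rose most: FSCN1 by 1.73 (SE 0.12) in C4-2B-EnzR and 2.48 (SE 0.11) in LNCaP-EnzR, and LCP1 by 1.30 (SE 0.15) and 1.24 (SE 0.10), all on the log2 scale. PLS1, the plastin of microvilli, rose in both (0.85, SE 0.13, and 0.61, SE 0.13), EPS8 rose in LNCaP-EnzR (1.19, SE 0.14), and EZR, which links actin to the microvillus membrane, was the one that fell (-0.34, SE 0.07, and -0.70, SE 0.08). The microvillus genes MYO1A, CDHR5 and USH1C were under the filter in both lines.

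**Figure D5:**
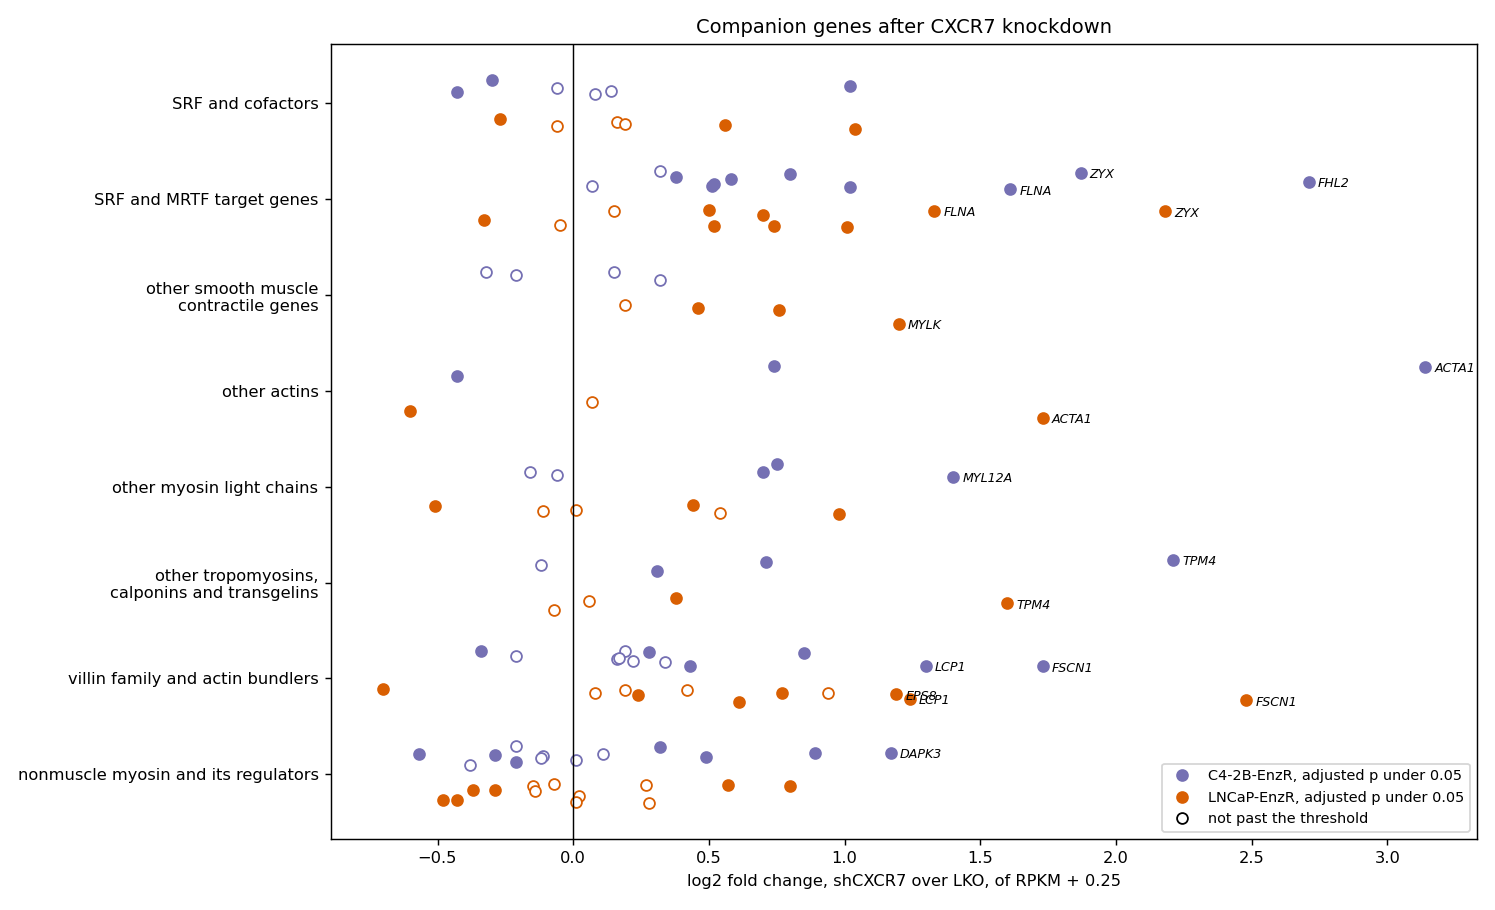
Log2 fold change after CXCR7 KD (shCXCR7 over LKO, RPKM + 0.25) of every companion gene that could be tested, by list, in C4-2B-EnzR (violet) and LNCaP-EnzR (orange); filled circles have an adjusted p under 0.05 and the largest are named. Most filled circles among SRF targets, tropomyosins and bundlers lie to the right of 0, with ZYX at 1.87 and 2.18 and TPM4 at 2.21 and 1.60, while no other smooth muscle contractile gene is filled in C4-2B-EnzR. The filled circles of ACTA1 in both lines and of FHL2 in C4-2B-EnzR are genes that passed the filter through the KD libraries alone.

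The response of the companions differed between the lines for 14 of the 59 that could be tested (limma interaction term, C4-2B-EnzR minus LNCaP-EnzR), 9 of them higher and 5 lower in C4-2B-EnzR, beside 12% of all genes called in either direction. The higher ones fell to 4 without LNCaP-EnzR LKO replicate 3, and the lower ones to 3 without C4-2B-EnzR shCXCR7 replicate 1.

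Checked against lists of markers of several cell types, the libraries carried those of luminal prostate epithelium. All 10 luminal markers were at 1 RPKM or more in every group, with sums of 874 to 896 RPKM in C4-2B-EnzR shCXCR7 against 990.0 to 1051 RPKM in LKO. In LNCaP-EnzR the sums were 727 to 730.3 RPKM in shCXCR7 without replicate 3 (608 RPKM in it) against 715 to 728 RPKM in LKO. Of 10 fibroblast markers only COL1A1 reached 1 RPKM outside replicate 3, COL1A2, PDGFRA and POSTN were at 0 in those 11 libraries, and the summed list was 8.91 to 10.3 RPKM in C4-2B-EnzR shCXCR7 against 9.31 to 12.2 RPKM in LKO. None of 8 skeletal muscle markers reached 1 RPKM in those 11 libraries, MYOD1, MYF5 and MYH2 were at 0 there, and the sum was 0.0417 to 0.332 RPKM in C4-2B-EnzR shCXCR7 against 0.287 to 0.405 RPKM in LKO. In LNCaP-EnzR the fibroblast sum was 3.96 to 4.13 RPKM in shCXCR7 without replicate 3 (9.65 RPKM in it) against 3.56 to 3.92 RPKM in LKO, and the skeletal muscle sum 0.267 to 0.412 RPKM without replicate 3 (8.38 RPKM in it) against 0.385 to 0.679 RPKM in LKO. Of 6 endothelial and blood markers only CD68 reached 1 RPKM in the 11 libraries other than LNCaP-EnzR shCXCR7 replicate 3. The list of 11 other smooth muscle contractile genes summed to 42.5 to 48.0 RPKM in C4-2B-EnzR shCXCR7 against 42.5 to 47.1 RPKM in LKO, and to 12.2 to 12.5 RPKM in LNCaP-EnzR shCXCR7 without replicate 3 (20.6 RPKM in it) against 8.47 to 9.55 RPKM in LKO. Of this list SMTN, MYLK, SYNM and PPP1R12B reached 1 RPKM in at least 1 of the 11 libraries, and KCNMB1 was at 0 in all of them.

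Likeness to the pattern of ACTG2, the gene with the highest difference, was Pearson's r over the 12 libraries of log2(RPKM + 0.25) after subtraction of the mean of the line's controls, among 13184 other genes with a mean of at least 1 RPKM in a group; the libraries share controls and a common KD difference, so high values are easily reached and carry no test. The 5 most like it outside the set were VIM (r = 0.992), GLYATL1 (0.991), TM4SF1 (0.990), CFAP45 (0.990) and GRAMD1C (0.989). VIM, the intermediate filament vimentin of mesenchymal cells, had 22.8, 20.8 and 21.0 RPKM in C4-2B-EnzR shCXCR7 against 3.56, 3.97 and 3.53 RPKM in LKO, and 16.8, 18.1 and 15.8 RPKM in LNCaP-EnzR shCXCR7 against 6.52, 5.22 and 5.64 RPKM in LKO. Within the set r was 0.988 for VIL1, 0.985 for ACTA2, 0.977 for MYL7, 0.958 for MYL9, 0.943 for TPM1, 0.703 for CALD1, 0.401 for TPM2 and -0.117 for TAGLN.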

How the data were processed

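RNA-seq libraries (NEBNext Ultra kit, single-end, Illumina) were made from 12 samples of LNCaP-EnzR and C4-2B-EnzR cells. The authors aligned reads to GRCh38 with STAR (also named, with hg38, in the submitters' processing notes), counted them per gene, and deposited RPKM per gene (FPKM in their methods) from an in-house script; no annotation version or strand setting is stated in those sources. Of 26475 lines, 32 had no value and 4 repeated a symbol, which left 26439 genes. From the RPKM steps whole reads were recovered for 99.97% of 25028 genes with a value above 0, which gave the depths. Values were divided by median-of-ratios factors within each line (over the 6 LKO libraries for the contrast of lines) and log2(RPKM + 0.25) was fitted with limma 3.58.1 in R 4.3.3 (empirical Bayes with trend) for genes with at least 0.5 RPKM in 3 libraries, with Benjamini-Hochberg adjustment over all of them and a threshold of 0.05; the scripts were tested on simulated data. The 10 genes and the companion and marker lists were chosen with earlier results of these data known. Named were the 10 genes, up to 3 companions per list and line with the largest change past the threshold, and the 5 genes most like ACTG2. Others (PDLIM7, CSRP1, RHOB, MYH11, DES, LMOD1, KCNMB1, PPP1R12B, MYOCD, CTGF, ANKRD1, ACTC1, EZR, striated light chains, microvillus genes, gene neighbours) were named after their values were seen. Alternatives were other pseudocounts, filters and scalings, a fit without the trend, voom on the recovered reads, a replicate block, background subtraction and leaving out each library. Intervals (95%) cover counting error only, and folds over the floor of 3 control reads leave out the counting error of the KD reads. Promoters are from RefSeq (GRCh38.p14), gene positions and shared 50-base words from GENCODE 44; RefSeq windows for MYL9, TAGLN and VIL1 were not used here.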

Additional observations from a re-analysis of the deposited data

Results flagged for a closer look

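The effect of KD differed between C4-2B-EnzR and LNCaP-EnzR, by the limma interaction term with adjustment over 14202 genes, for 10 of the companion genes named for their change within a line. Of these, 5 were higher in C4-2B-EnzR: MYL6 (difference 0.69, SE 0.16, adjusted p = 0.0164), ACTG1 (0.67, SE 0.15, adjusted p = 0.0152), TPM4 (0.62, SE 0.15, adjusted p = 0.0178), DAPK3 (0.60, SE 0.12, adjusted p = 0.00837) and MYL12A (0.42, SE 0.11, adjusted p = 0.033). TPM4, DAPK3 and MYL12A rose in both lines, and MYL6 (0.70 against 0.01) and ACTG1 (0.74 against 0.07) passed in C4-2B-EnzR only. The MYL12A difference was lost in 12 of its alternatives.

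The other 5 were lower in C4-2B-EnzR: MYLK (difference -1.05, SE 0.20, adjusted p = 0.00541), EPS8 (-0.85, SE 0.25, adjusted p = 0.0461), FSCN1 (-0.75, SE 0.16, adjusted p = 0.0103), SMTN (-0.67, SE 0.13, adjusted p = 0.00761) and MKL2 (-0.48, SE 0.11, adjusted p = 0.0176). The log2 change of MYLK was 0.15 in C4-2B-EnzR against 1.20 in LNCaP-EnzR, and that of SMTN -0.21 against 0.46. FSCN1 rose in both lines, by 1.73 and 2.48. The EPS8 difference was lost in 18 of its alternatives. LNCaP-EnzR shCXCR7 replicate 3, with its raised background, enters each of these differences; without it the calls of EPS8 and MYL12A were lost (adjusted p = 0.0521 and 0.0512, limma), and the other 8 held. Without LNCaP-EnzR LKO replicate 3 those of ACTG1 and TPM4 were lost, and without LNCaP-EnzR LKO replicate 2 or C4-2B-EnzR shCXCR7 replicate 1 that of MKL2 (adjusted p = 0.0501 to 0.0520). Companions outside these 10 were called too, all higher in C4-2B-EnzR: CSRP1, PDLIM7 (0.65, adjusted p = 0.0168), RHOB (0.38, adjusted p = 0.0481) and EZR (0.35, adjusted p = 0.0445, limma). CSRP1 had the largest called difference (1.07, SE 0.13, adjusted p = 5.1e-04, limma), at 1.02 in C4-2B-EnzR against -0.05 in LNCaP-EnzR. Their values in the alternatives are not given here. Why the effects differ was not tested.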

How the results depend on the processing

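Counts of companions past the threshold in either line kept within 1.5 times of the reported ones in all alternatives but one: with RPKM as deposited, where LNCaP-EnzR shCXCR7 replicate 3 is left at its lower scale and the median of all genes lies at -0.31, 3 rose and 0 fell in LNCaP-EnzR. Leaving out single libraries gave 25 to 29 risen and 5 to 8 fallen in C4-2B-EnzR, and 23 to 27 risen and 6 to 9 fallen in LNCaP-EnzR. The differences between lines were less stable. Against 9 higher and 5 lower in C4-2B-EnzR, there were 4 and 3 without a filter on low values, 0 and 0 with RPKM as deposited, 8 lower with quantile normalization, 9 lower with the background subtracted, 8 lower with factors from genes above 5 RPKM (chosen after seeing the data), and 4 to 11 higher and 3 to 6 lower without single libraries (4 higher without LNCaP-EnzR LKO replicate 3, 3 lower without C4-2B-EnzR shCXCR7 replicate 1). The ACTB difference was -0.38 (adjusted p = 0.00459) with quantile normalization against 0.17 as reported. The cause was not tested.

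The median log2 difference of the 10 genes after KD was 2.74 in LNCaP-EnzR with a pseudocount of 0.05, 0.62 with 1, and 2.78 with voom on the recovered reads; in C4-2B-EnzR it was 1.45 with a pseudocount of 1. A pseudocount weighs most on genes near 0, such as ACTG2, MYL7 and VIL1. Without single libraries it was 1.04 to 1.77 in LNCaP-EnzR (lowest without shCXCR7 replicate 3, highest without replicate 2) and 2.19 to 2.36 in C4-2B-EnzR. In the contrast of control cells 3 to 4 of the genes were higher and 0 to 1 lower without single libraries. TPM2 and MYL9, which passed the filter through the C4-2B-EnzR libraries alone, are counted among the higher.

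Libraries of the same number did not deviate together (correlations of -0.10 to 0.03 in LNCaP-EnzR and -0.11 to 0.06 in C4-2B-EnzR), so numbers were taken as names. With a replicate block, 27 companions rose and 6 fell in C4-2B-EnzR, 26 rose and 9 fell in LNCaP-EnzR, and 4 differences were higher and 4 lower. Single reads limit ACTG2, VIL1, MYL7 and CNN1 in the controls.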
